A study of Rattus norvegicus with 27 samples.

Results

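The genes described here are the voltage-gated sodium channel genes and Fgf12, as measured in tail motor neurons of rats whose sacral cord had been transected and of sham-operated rats. All probe sets annotated with a single symbol of the form Scn, digits and a or b, and those of Fgf12, were taken, which gave 11 probe sets of 10 genes among the 12913 probe sets tested (9769 genes). They comprised 6 alpha subunit genes (Scn2a, Scn4a, Scn8a, Scn9a, Scn10a and Scn11a), 3 beta subunit genes (Scn2b, Scn3b with 2 probe sets, and Scn4b) and Fgf12. Other genes of the family were not analysed here. The 27 arrays fell into 4 groups of adult male Wistar rats, and the labels name no transgene or mutant allele. Spi-21 (n = 8) and Spi-60 (n = 8) had the spinal cord cut at S2, with 1 to 2 mm of tissue taken out through a laminectomy of L2 to L3, and were sampled 21 and 60 days later. ShamC-21 (n = 6) and ShamC-60 (n = 5) had the laminectomy alone, with the dura left whole, at the same intervals. Animals of all 4 groups had Fluorogold, a fluorescent tracer carried back along axons, injected into muscle and into the abdomen 5 to 7 days before collection, and the protocol lists buprenorphine for the first 48 hours. Each sample was a pool of laser-dissected Fluorogold-positive neurons (100 to 200 per the sample labels, 50 to 200 per the series text), and its RNA was amplified in 2 rounds before hybridisation. The replicates are numbered as biological, but nothing ties a sample to an animal, and a p-value here reflects the spread from sample to sample, which may be technical in part. In such pools fewer neurons with a transcript and less transcript per neuron cannot be told apart.

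Voltage-gated sodium channels open when the membrane depolarises and carry the inward current that starts and propagates action potentials. The alpha subunit forms the pore, the beta subunits are adhesion-type membrane proteins that tune gating and surface level, and Fgf12 belongs to the intracellular fibroblast growth factor homologous factors, which bind the channel's carboxy terminus and shift its inactivation. The channels are concentrated at the axon initial segment and at nodes of Ranvier by ankyrin and spectrin scaffolds, and a small non-inactivating part of their current helps motor neurons to sustain firing. Tail motor neurons below a sacral transection are a model of spasticity, in which such persistent inward currents are known to prolong muscle spasms.

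The 250 bases before the annotated start are shown for 3 of the genes that differed: Scn9a and Scn2a, the pore subunit genes that were lower after transection and lie close together on chromosome 3, and Fgf12, which was higher at 21 days. They are from RefSeq, build GRCr8, on the strand of the gene. Capitals mark the GGGCGG motif of GC boxes.
Scn9a (chr3:71701378-71701627, minus strand): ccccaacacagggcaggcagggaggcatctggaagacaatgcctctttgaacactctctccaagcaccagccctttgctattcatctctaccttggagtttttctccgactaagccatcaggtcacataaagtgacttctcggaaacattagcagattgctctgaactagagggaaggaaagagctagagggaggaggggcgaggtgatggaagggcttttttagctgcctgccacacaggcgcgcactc
Scn2a (chr3:70710706-70710955, plus strand): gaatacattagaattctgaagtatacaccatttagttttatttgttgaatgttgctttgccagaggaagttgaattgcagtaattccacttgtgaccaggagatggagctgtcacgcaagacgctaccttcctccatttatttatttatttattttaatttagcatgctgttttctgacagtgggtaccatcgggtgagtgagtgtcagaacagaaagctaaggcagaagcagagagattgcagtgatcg
Fgf12 (chr11:85501697-85501946, plus strand): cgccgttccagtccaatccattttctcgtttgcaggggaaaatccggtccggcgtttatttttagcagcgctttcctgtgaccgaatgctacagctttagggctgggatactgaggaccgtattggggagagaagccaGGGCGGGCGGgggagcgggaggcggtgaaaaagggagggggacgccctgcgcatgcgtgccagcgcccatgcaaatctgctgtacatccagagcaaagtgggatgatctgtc
Between Scn2a and Scn9a the RefSeq table placed 5 other protein-coding genes. That closeness is not particular to this pair. On chromosome 8 the table placed 1 such gene between Scn10a and Scn11a and 0 between Scn2b and Scn4b. The Scn9a window held 52.4% G and C and the Scn2a window 39.6%, while that of Fgf12 held 58%, against a median of 51.2% over all 33465 promoter windows of that table. Of the 10 member genes 9 had an entry, Fgf12 with 2 windows, so that 10 windows were read on both strands. Scn3b had no entry in the table. The AP-1 element, searched as TGACTCA or its reverse complement TGAGTCA, was in 0 of the 10 windows and in 4.05% of all windows. The cyclic AMP response element TGACGTCA was in 0 of the 10 and in 1.59% of all. GGGCGG was in 2 of the 10, the Fgf12 window above (at bases 139 and 143, overlapping by 2 letters) and the Scn8a window, and in 30.5% of all windows.

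The signals are log2 values made by RMA, in which a difference of 1 is a doubling, and levels are compared only within a probe set. A difference passed where the Benjamini-Hochberg adjusted p of the limma fit, taken over all 12913 probe sets, was below 0.05. A pair of array features bore on what follows. ShamC-60 replicate 4 stood apart: its mean over 15 motor neuron marker genes was 8.32, against 9.56 to 9.80 in the other ShamC-60 arrays, and its mean over 9 interneuron markers was 7.86, against 6.20 to 6.92. Over the other groups the motor neuron marker mean was 9.40 to 9.82 in Spi-21, 9.64 to 9.83 in Spi-60 and 9.68 to 9.90 in ShamC-21. This mean was used to check the neurons against their label, and it leans on high signals such as Nefh, Nefm, Nefl, Prph and Calca. The markers Isl1, Isl2, Lhx4, Mmp9 and Chrna4 averaged below 6.35, the median of probe set means, in every group. The check is therefore a weak one. Chat, the acetylcholine-synthesising enzyme, was not analysed here. The second feature is the gap for beta-actin, the signal of its 3' probe set minus that of its 5' probe set. A larger gap means that less of that transcript is kept in full. It was 2.86 to 3.60 in Spi-21 against 1.97 to 2.65 in ShamC-21. At 60 days it was 2.75 to 3.77 in Spi-60 against 1.92 to 2.42 in ShamC-60. The beta-actin gap thus moved with the operation without overlap. Its part in the differences below was not tested. The same gap for GAPDH split Spi-21, with 2.57 to 3.47 over replicates 1 to 4 and 0.98 to 1.46 over replicates 5 to 8. In ShamC-21 the GAPDH gap was 2.65 to 3.26. At 60 days it was 2.85 to 3.85 in Spi-60 against 2.31 to 2.92 in ShamC-60, and its part was not tested. Of the 15 motor neuron markers 2 rose and 0 fell at 21 days and 4 rose and 0 fell at 60 days. Over all probe sets 11.3% rose and 11.2% fell at 21 days, and 10.2% and 8.92% at 60 days. Without ShamC-60 replicate 4, whose spread enters the shared fit, 2 of the markers rose at 21 days (Chrna4 0.46 and Isl2 0.28). In that fit 4 fell (Calca -0.86, Calcb -0.84, Ret -0.78 and Nefl -0.32), where 24.6% of all probe sets passed in either direction. At 60 days without that array 2 markers rose (Slc18a3 1.15 and Chrna4 0.36) and 1 fell (Calca -0.98), against 6.48% and 5.43% of all probe sets. The part of these markers in the channel differences was not tested. Member results that rest on ShamC-60 replicate 4 are given with and without it.

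At 21 days, 2 of the 11 probe sets rose after transection (Fgf12 and Scn4a), 1 fell (Scn9a) and 8 did not pass. Over all probe sets tested, 11.3% rose and 11.2% fell at 21 days, so neither count is a result about the family. At 60 days, 1 probe set rose (Scn10a), 3 fell (Scn9a, Scn2a and one of the Scn3b probe sets) and 7 did not pass, where 10.2% of all probe sets rose and 8.92% fell. The median log2 difference of the 11 was -0.04 at 21 days and 0.02 at 60 days, beside 0.01 and 0.02 for all probe sets. Averaged over both days, 3 rose (Fgf12, Scn10a and Scn4a) and 4 fell (Scn9a, Scn2a and both Scn3b probe sets), against 20.4% and 19.0% of all probe sets. Without ShamC-60 replicate 4, 5 passed at 21 days, against 24.6% of all probe sets (Fgf12 and Scn4a higher, Scn9a, Scn2a and Scn3b 1383435_at lower), and 0 rose and 3 fell at 60 days (6.48% and 5.43% of all). Members that passed went in both directions, and they are described by their roles.

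**Figure D1:**
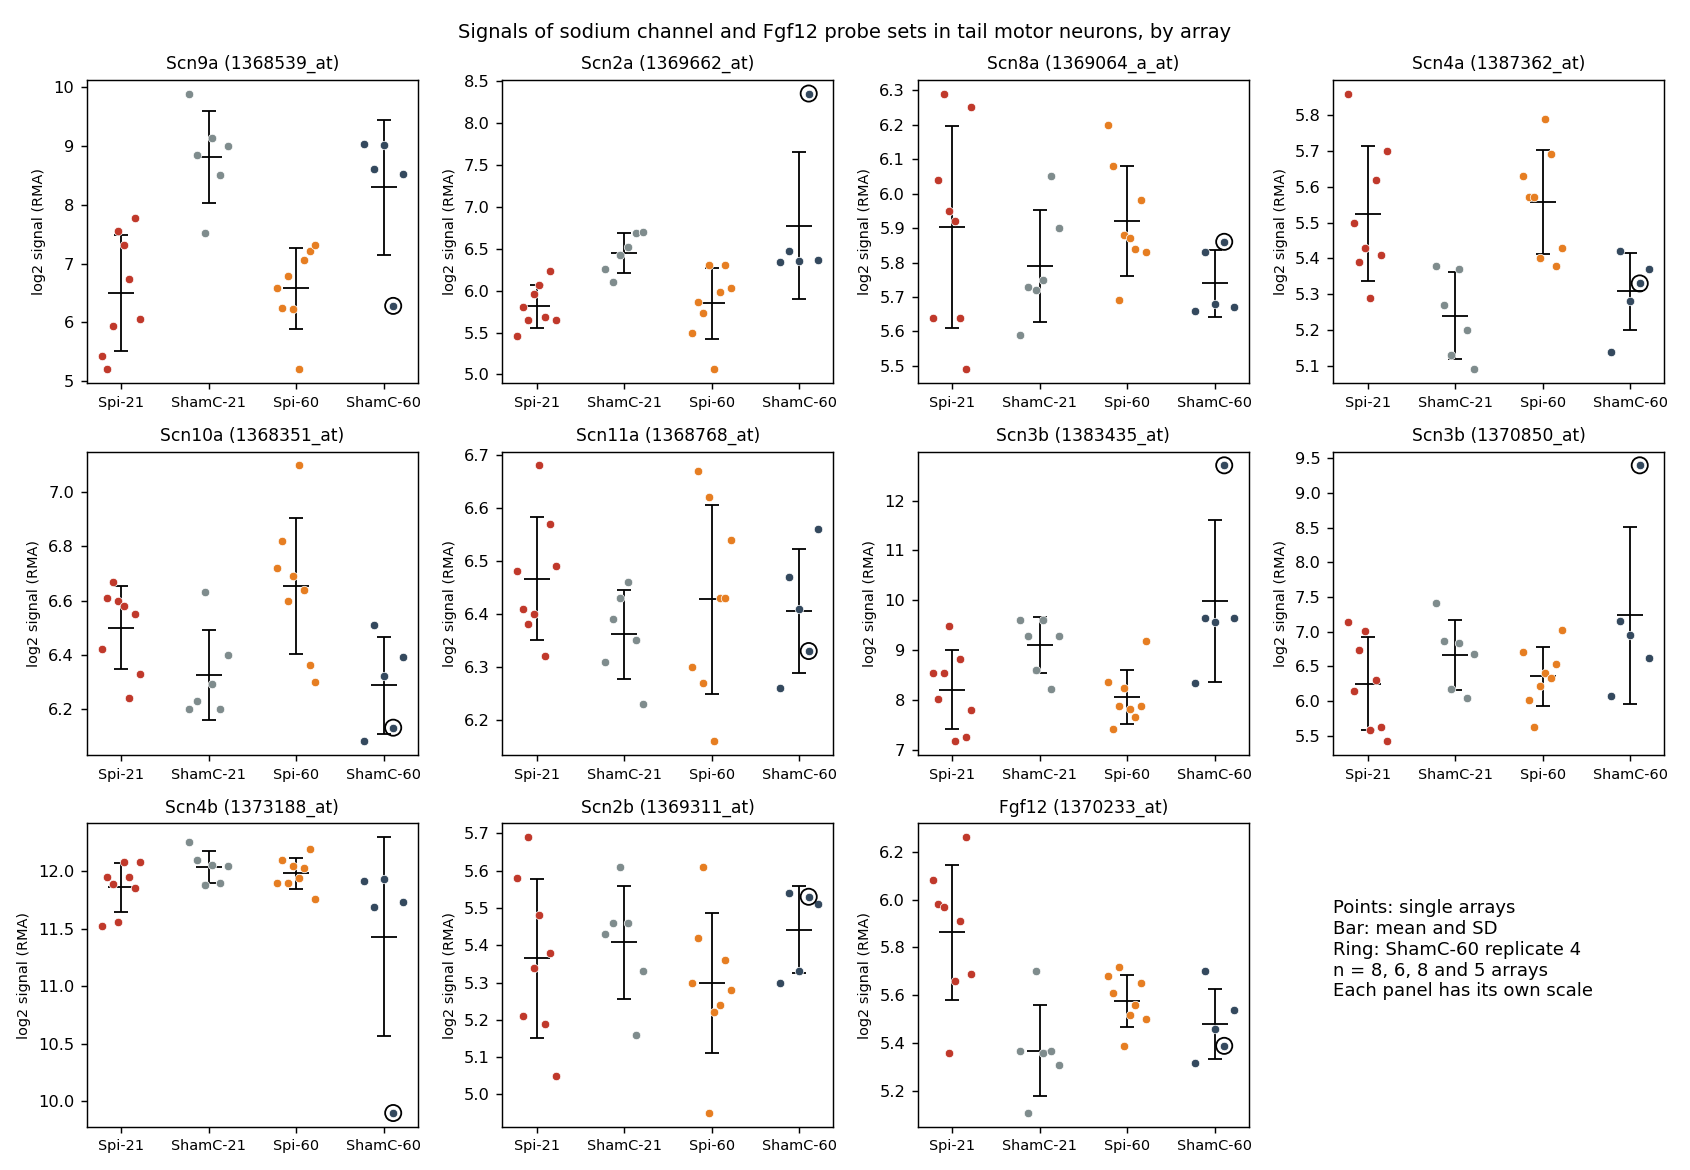
RMA log2 signal (vertical axes, one scale per panel) of the 11 sodium channel and Fgf12 probe sets in each array of Spi-21 (n = 8), ShamC-21 (n = 6), Spi-60 (n = 8) and ShamC-60 (n = 5). Points are arrays, bars are mean and SD, and the ring marks ShamC-60 replicate 4, which had 6.28 for Scn9a, 8.35 for Scn2a, 12.71 for Scn3b (1383435_at) and 9.90 for Scn4b, each away from the other ShamC-60 arrays.

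Among the pore-forming subunits, Scn9a, known for setting the excitability of pain-sensing neurons, had the largest drop of the 11 probe sets at 21 days. Its probe set (1368539_at) had 5.20, 6.40 and 7.77 as lowest, median and highest signal in Spi-21, against 7.52, 8.92 and 9.89 in ShamC-21. Every Spi-21 array lay below the ShamC-21 mean and 6 of 8 lay below every ShamC-21 array. The means were 6.50 ± 0.989 in Spi-21 and 8.82 ± 0.781 in ShamC-21 (SD), a log2 difference of -2.31 ± 0.444 (SE), which is 4.97-fold lower (limma adjusted p = 0.000794, 95% interval -3.22 to -1.4). The drop was seen on both sides of the split in Spi-21. It was -2.79 with replicates 1 to 4 alone (adjusted p = 0.000508), where 30.2% of all probe sets passed. With replicates 5 to 8 alone it was -1.84 (adjusted p = 0.0199), where 10.3% of all passed. Both sides were compared with the same ShamC-21 arrays, so they are not independent.

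At 60 days Scn9a had 5.21, 6.68 and 7.31 as lowest, median and highest signal in Spi-60, and 9.04, 8.61, 9.01, 6.28 and 8.53 in ShamC-60 replicates 1 to 5. All 8 Spi-60 arrays lay below the ShamC-60 mean, and 4 of the 5 sham arrays lay above every Spi-60 array. The means were 6.58 ± 0.688 in Spi-60 and 8.29 ± 1.15 in ShamC-60 (SD), a log2 difference of -1.72 ± 0.469 (SE), which is 3.29-fold lower (limma adjusted p = 0.0117). Without ShamC-60 replicate 4 the difference was -2.22 ± 0.435 (adjusted p = 0.00144), and the groups did not overlap, as for 4.51% of all probe sets. The order of the 4 group means was ShamC-21, ShamC-60, Spi-60 and Spi-21, in which the neighbouring sham groups (-0.52 for 60 minus 21 days, adjusted p = 0.999) and the neighbouring transected groups (0.08, adjusted p = 0.964) did not differ beyond their spread. Averaged over both days Scn9a was 4.04-fold lower (log2 -2.02 ± 0.323, adjusted p = 3.16e-05).

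Scn2a encodes a pore subunit of central neurons that sits at the axon initial segment. At 60 days its probe set (1369662_at) had 5.06, 5.92 and 6.31 as lowest, median and highest signal in Spi-60, and 6.34, 6.47, 6.35, 8.35 and 6.37 in ShamC-60. All 8 Spi-60 arrays lay below every ShamC-60 array, a gap without overlap that 3.42% of all probe sets showed in that direction, although the highest Spi-60 and the lowest ShamC-60 value were close. The log2 difference was -0.93 ± 0.25 (SE), 1.91-fold lower, with means of 5.85 ± 0.419 in Spi-60 and 6.78 ± 0.881 in ShamC-60 (SD; limma adjusted p = 0.0104). Without ShamC-60 replicate 4 it was -0.54 ± 0.176 (adjusted p = 0.0448), and without ShamC-60 replicates 1 and 4 together it was -0.55 and did not pass (adjusted p = 0.0954).

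At 21 days Scn2a had 5.46, 5.74 and 6.23 as lowest, median and highest signal in Spi-21, against 6.10, 6.48 and 6.70 in ShamC-21, and 7 of 8 Spi-21 arrays lay below every ShamC-21 array. The log2 difference was -0.64 ± 0.237 (SE) and did not pass (adjusted p = 0.0511, 95% interval -1.12 to -0.15), with means of 5.81 ± 0.255 in Spi-21 and 6.45 ± 0.237 in ShamC-21 (SD). The 4 groups share one estimate of spread in the fit, and without ShamC-60 replicate 4 the 21-day difference kept its size and passed (adjusted p = 0.00436). It also passed without Spi-21 replicate 5 or 7, Spi-60 replicate 5 or ShamC-21 replicate 2 (adjusted p of 0.0379 to 0.0498). Averaged over both days the log2 difference of Scn2a was -0.78 ± 0.172 (adjusted p = 0.000829).

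Scn8a encodes the main pore subunit at mature nodes of Ranvier and initial segments, and no difference passed for it. Its probe set (1369064_a_at) had 5.49, 5.93 and 6.29 as lowest, median and highest signal in Spi-21, against 5.59, 5.74 and 6.05 in ShamC-21. At 60 days it had 5.69, 5.87 and 6.20 in Spi-60, against 5.66, 5.83, 5.68, 5.86 and 5.67 in the 5 ShamC-60 arrays. The groups overlapped at both days. The log2 difference was 0.11 at 21 days (95% interval -0.12 to 0.34, limma adjusted p = 0.488) and 0.18 at 60 days (interval -0.06 to 0.42, adjusted p = 0.289).

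Scn4a, known as the pore subunit of skeletal muscle, was slightly higher after transection. Its probe set (1387362_at) had 5.29, 5.46 and 5.86 as lowest, median and highest signal in Spi-21, against 5.09, 5.23 and 5.38 in ShamC-21, and 7 of 8 Spi-21 arrays lay above every ShamC-21 array. The log2 difference was 0.28 ± 0.0895 (SE), 1.22-fold higher, with means of 5.52 ± 0.188 in Spi-21 and 5.24 ± 0.122 in ShamC-21 (SD; limma adjusted p = 0.0238). It did not pass without Spi-21 replicate 1 (0.24, adjusted p = 0.0507) or without ShamC-21 replicate 6 (0.25, adjusted p = 0.0625), nor with Spi-21 replicates 5 to 8 alone (0.26, adjusted p = 0.0926) or in a fit of only these 2 groups (adjusted p = 0.0574). At 60 days it had 5.38, 5.57 and 5.79 in Spi-60, against 5.14, 5.42, 5.28, 5.33 and 5.37 in ShamC-60, a log2 difference of 0.25 ± 0.0945 that did not pass (adjusted p = 0.0649). That call was near the threshold and passed, for example, without Spi-21 replicate 1 (0.25, adjusted p = 0.0438) and without Spi-60 replicate 7 (0.27, adjusted p = 0.0473). Averaged over both days it rose by 0.27 ± 0.0651 (adjusted p = 0.00221). Skeletal muscle markers, 6 genes, averaged 5.41 to 5.77 per array in Spi-21 against 5.47 to 5.64 in ShamC-21, with 0 higher and 1 lower at 21 days, and their part in the Scn4a signal was not tested.

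Scn10a and Scn11a encode the tetrodotoxin-resistant pore subunits of pain-sensing neurons. Scn10a (1368351_at) had 6.30, 6.67 and 7.10 as lowest, median and highest signal in Spi-60, against 6.08, 6.51, 6.32, 6.13 and 6.39 in ShamC-60, and all 8 Spi-60 arrays lay above the ShamC-60 mean, 6 of them above every ShamC-60 array. The log2 difference was 0.37 ± 0.114 (SE), 1.29-fold higher, with means of 6.65 ± 0.253 in Spi-60 and 6.29 ± 0.179 in ShamC-60 (SD; limma adjusted p = 0.0245). It did not pass without Spi-60 replicate 5 (0.30, adjusted p = 0.0522), without ShamC-60 replicate 1 (0.32, adjusted p = 0.0867) or without ShamC-60 replicate 4 (0.33, adjusted p = 0.0801). At 21 days Scn10a averaged 6.50 ± 0.152 in Spi-21 and 6.32 ± 0.166 in ShamC-21 (SD), a log2 difference of 0.18 with an interval of -0.05 to 0.4 (adjusted p = 0.247).

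Scn11a (1368768_at) lay between 6.32 and 6.68 in Spi-21 against 6.23 and 6.46 in ShamC-21, and between 6.16 and 6.67 in Spi-60 against 6.26 and 6.56 in ShamC-60. Its log2 differences were 0.11 ± 0.0826 at 21 days (limma adjusted p = 0.364) and 0.02 ± 0.0872 at 60 days (adjusted p = 0.899). The mean over 13 sensory neuron markers was 5.81 to 5.99 in Spi-21 and 5.79 to 6.06 in Spi-60, against 5.83 to 5.97 in ShamC-21 and 5.76 to 5.92 in ShamC-60. Of these 13 markers 2 rose and 1 fell at 21 days, where 11.3% of all probe sets rose and 11.2% fell. At 60 days 1 rose, where 10.2% of all did (0 without ShamC-60 replicate 4, with 2 rising and 1 falling at 21 days). The part of these markers in the signals of Scn9a, Scn10a and Scn11a was not tested.

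Among the auxiliary subunits, Scn3b, which encodes a beta subunit that modulates channel surface level and inactivation, was lower at 60 days on one of its probe sets. Probe set 1383435_at had 7.42, 7.88 and 9.18 as lowest, median and highest signal in Spi-60, and 8.34, 9.64, 9.57, 12.71 and 9.65 in ShamC-60. All 8 Spi-60 arrays lay below the ShamC-60 mean and 6 lay below every ShamC-60 array, while ShamC-60 replicate 4 lay far above the other sham arrays. The means were 8.05 ± 0.544 in Spi-60 and 9.98 ± 1.62 in ShamC-60 (SD), a log2 difference of -1.93 ± 0.471 (SE), which is 3.82-fold lower (limma adjusted p = 0.00534). Without ShamC-60 replicate 4 the sham mean was 9.30 ± 0.641 and the difference was -1.25 ± 0.364 (adjusted p = 0.0247).

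At 21 days the same probe set had 7.17, 8.27 and 9.48 as lowest, median and highest signal in Spi-21, against 8.21, 9.29 and 9.60 in ShamC-21, with overlap between the groups. The log2 difference of -0.9 ± 0.446 did not pass (adjusted p = 0.145), but it passed at the same size without ShamC-60 replicate 4 (adjusted p = 0.0417). The Spi-21 arrays differed among themselves here: replicates 1 to 4 averaged 8.64 and gave a difference of -0.46 (adjusted p = 0.533), and replicates 5 to 8 averaged 7.76 and gave -1.34 (adjusted p = 0.108). This is the same split as for the GAPDH gap, whose part in it was not tested. The other Scn3b probe set, 1370850_at, gave smaller differences of the same sign that did not pass, -0.42 ± 0.361 at 21 days (adjusted p = 0.419) and -0.88 ± 0.382 at 60 days (adjusted p = 0.103), and without ShamC-60 replicate 4 the 60-day value was -0.34 (adjusted p = 0.491), while without ShamC-60 replicate 1 it was -1.18 and passed (adjusted p = 0.0453). Averaged over both days the difference was -0.65 ± 0.263 for 1370850_at (adjusted p = 0.0494) and -1.41 ± 0.324 for 1383435_at (adjusted p = 0.00124). Without ShamC-60 replicate 4 the averaged difference of 1370850_at was -0.38 and did not pass (adjusted p = 0.138), and it passed in 8 of the 27 fits that left out 1 array.

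Scn4b encodes the beta subunit whose cytoplasmic tail is linked to resurgent sodium current. Its probe set (1373188_at) had 11.76, 11.99 and 12.19 as lowest, median and highest signal in Spi-60, against 11.91, 11.69, 11.93, 9.90 and 11.73 in ShamC-60. At 21 days it had 11.52, 11.92 and 12.08 in Spi-21 against 11.88, 12.04 and 12.25 in ShamC-21. Apart from ShamC-60 replicate 4, all arrays lay within a range of less than 1 unit. The log2 difference was -0.18 ± 0.199 at 21 days (limma adjusted p = 0.55) and 0.55 ± 0.211 at 60 days (adjusted p = 0.0655), and the 60-day value without ShamC-60 replicate 4 was 0.17 ± 0.107 (adjusted p = 0.331). Neither day passed with all arrays. The 60-day difference passed without ShamC-60 replicate 1 (0.67, adjusted p = 0.0459), replicate 3 (0.68, adjusted p = 0.0346) or replicate 5 (0.62, adjusted p = 0.0491), which each leave replicate 4 in a smaller sham group.

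Scn2b, a beta subunit linked to the alpha subunit by a disulphide bond, did not pass at either day (1369311_at). It lay between 5.05 and 5.69 in Spi-21 against 5.16 and 5.61 in ShamC-21, and between 4.95 and 5.61 in Spi-60 against 5.30 and 5.54 in ShamC-60. The 95% interval of its log2 difference ran from -0.25 to 0.16 at 21 days and from -0.36 to 0.07 at 60 days.

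**Figure D2:**
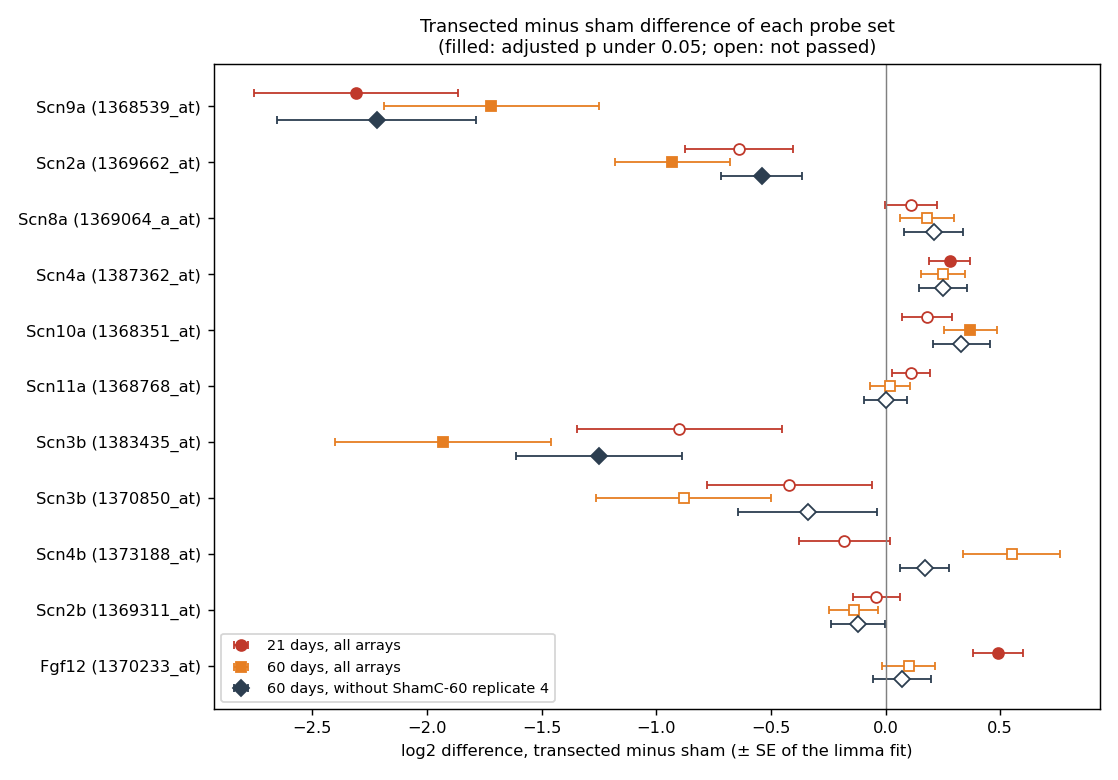
Log2 difference, transected minus sham, of the 11 sodium channel and Fgf12 probe sets with the standard error of the limma fit, at 21 days, at 60 days and at 60 days without ShamC-60 replicate 4. Filled symbols passed at an adjusted p of 0.05; Scn9a lies lowest at 21 days at -2.31, and leaving out the one sham array moved Scn3b (1383435_at) at 60 days to -1.25, against -1.93 with all arrays.

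Fgf12 was higher at 21 days. Its probe set (1370233_at) had 5.36, 5.94 and 6.26 as lowest, median and highest signal in Spi-21, against 5.11, 5.36 and 5.70 in ShamC-21. Of the 8 Spi-21 arrays 7 lay above the ShamC-21 mean and 5 above every ShamC-21 array. The means were 5.86 ± 0.283 in Spi-21 and 5.37 ± 0.188 in ShamC-21 (SD), a log2 difference of 0.49 ± 0.11 (SE), which is 1.41-fold higher (limma adjusted p = 0.00257, 95% interval 0.27 to 0.72). It was 0.48 with Spi-21 replicates 1 to 4 alone (adjusted p = 0.00622) and 0.51 with replicates 5 to 8 alone (adjusted p = 0.00792). The sham arrays were the same in both fits, so these values are not independent. At 60 days Fgf12 had 5.39, 5.58 and 5.72 as lowest, median and highest signal in Spi-60, against 5.32, 5.70, 5.46, 5.39 and 5.54 in ShamC-60, with overlap between the groups. The 60-day difference was 0.10 with an interval of -0.14 to 0.33 (adjusted p = 0.586). The difference between the days, -0.40 ± 0.159, did not pass (adjusted p = 0.653), so a change of the Fgf12 response with time was not shown. The signals of Fgf12, Scn2a, Scn4a, Scn8a and Scn2b were low, with means over all arrays below 6.35, the median of probe set means. Scn10a (6.47) and Scn11a (6.42) lay only just above that median. Low signals limit how finely these genes can be resolved. The relatives Fgf11 and Fgf14 did not pass at either day. At 21 and 60 days Fgf11 differed by 0.12 and 0.06 (adjusted p = 0.333 and 0.664). Fgf14 differed by 0.12 and -0.03 (adjusted p = 0.603 and 0.927). Fgf11 also averaged below the median of 6.35 in every group.

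The day after operation was compared in the same way. For 0 of the 11 probe sets did the transected minus sham difference differ between 60 and 21 days, where 0% of all 12913 probe sets did, although 2 of the 11 (Scn4b and Fgf12) had an unadjusted p below 0.05, as did 7.01% of all. Spi-60 minus Spi-21 passed for 0 of the 11, against 0.0852% of all probe sets, with 1 (Fgf12) at an unadjusted p below 0.05, as for 13.2% of all. ShamC-60 minus ShamC-21 passed for 0 of the 11 and 0% of all, with 1 (Scn4b) at an unadjusted p below 0.05, as for 3.97% of all. The widest difference between days was -1.04 ± 0.648 for Scn3b (1383435_at; limma adjusted p = 0.777), and it was -0.35 without ShamC-60 replicate 4 (adjusted p = 0.983). For Scn9a it was 0.6 with an interval of -0.73 to 1.92 (adjusted p = 0.892).

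The members varied together to different degrees within groups. With each group's mean subtracted, the 2 Scn3b probe sets had a Pearson correlation of 0.909 over the 27 arrays, and 0.822 without ShamC-60 replicate 4. Scn3b (1383435_at) and Scn4b had -0.762 over all arrays and -0.403 without that array, and Scn2a and Scn4b had -0.685 and 0.114, so the negative relations leaned on 1 array. Scn2a and Scn4a had -0.402 over all arrays and -0.681 without it. The arrays share amplification and normalization, and these correlations are descriptions.

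**Figure D3:**
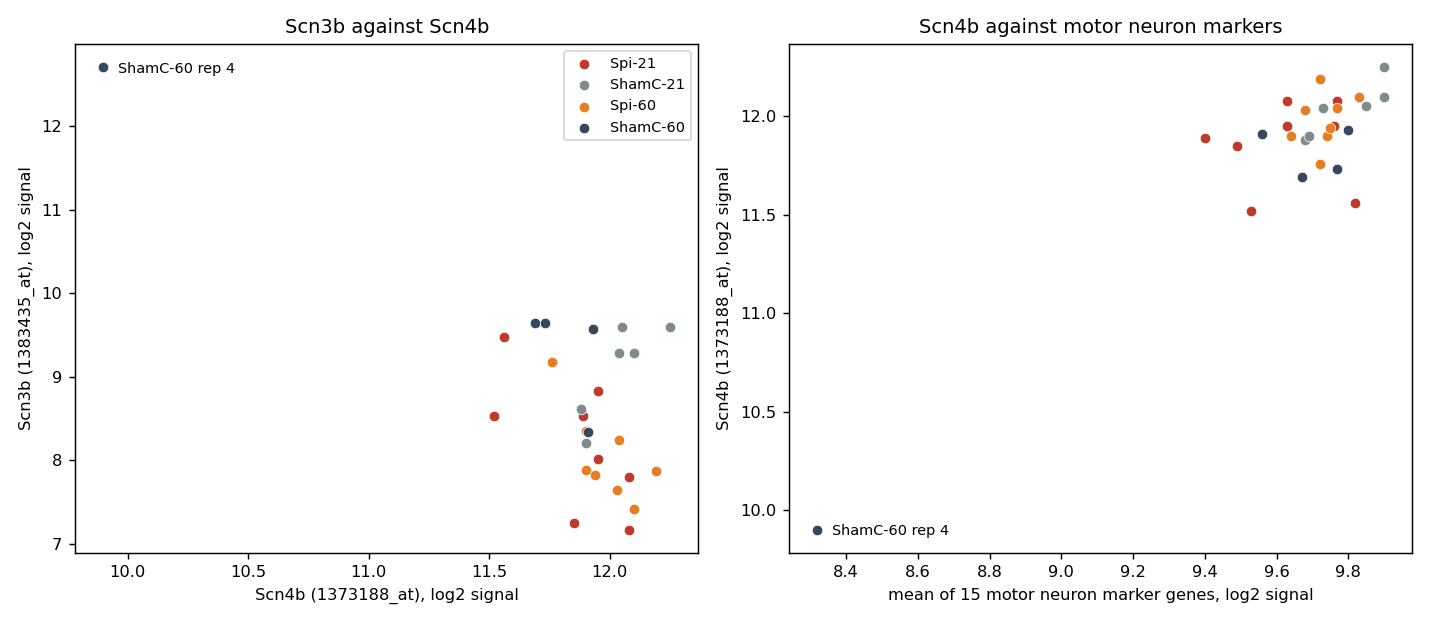
Left, log2 signal of Scn3b (1383435_at, vertical) against Scn4b (horizontal); right, log2 signal of Scn4b (vertical) against the mean of 15 motor neuron marker genes (horizontal), each point an array of Spi-21, ShamC-21, Spi-60 or ShamC-60. ShamC-60 replicate 4 lies alone in both panels, with 12.71 for Scn3b, 9.90 for Scn4b and 8.32 for the markers, and the other arrays span 7.17 to 9.65 for Scn3b and 11.52 to 12.25 for Scn4b.

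The genes whose signals across the 27 arrays were most like those of Scn9a, by Pearson correlation over 9768 other genes, were Tspan13 (0.91), Dync1i2 (0.903) and Cd55 (0.886), and without ShamC-60 replicate 4 these values were 0.919, 0.922 and 0.889. Since Scn9a differed between operations, genes that differ too rank high here, and all 3 fell at 21 days, Cd55, a complement inhibitor on the cell surface, with a log2 difference of -1.92 (adjusted p = 1.94e-05). With group means subtracted the 3 most like Scn9a were Sod2 (0.815), Maoa (0.798) and Nipsnap3b (0.797), and none of these passed at either day. For Scn3b (1383435_at) they were Nptxr (0.869), Rab15 (0.811) and Aldh3b1 (0.778) with group means subtracted. Leaving ShamC-60 replicate 4 out of the correlation, while it still counted in the subtracted group mean, gave 0.77, 0.843 and 0.571. These 3 values are thus not within-group correlations without that array. For Fgf12 they were Fbxl12 (0.741), Ftsj3 (0.714) and Anapc13 (0.713). The arrays behind these correlations are the same and share their amplification and normalization, and the top of 9768 values is high by selection.

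Sodium channels are anchored by scaffold proteins of the axon initial segment and node, and 22 of 26 listed genes of that kind were measured. At 21 days 5 rose and 2 fell, where 11.3% of all probe sets rose and 11.2% fell. The median log2 difference was 0.06, beside 0.01 for all probe sets. Sptbn4, the spectrin that ties ankyrin to actin at the initial segment, rose by 1.72 ± 0.207 at 21 days (limma adjusted p = 4.1e-06) and by 1.69 ± 0.219 at 60 days (adjusted p = 8.89e-06). Sptbn1, another spectrin, rose by 0.98 ± 0.222 (adjusted p = 0.00293), Ank2, an ankyrin of the distal axon, by 0.38 ± 0.0999 (adjusted p = 0.00854), and Mapre3, a microtubule end-binding protein, by 0.57 ± 0.192 (adjusted p = 0.032) at 21 days. Kcna2, a potassium channel beside the node, rose by 0.33 ± 0.103 (adjusted p = 0.022). Dlg2, a scaffold for potassium channels, fell by 0.78 ± 0.186 (adjusted p = 0.00437), and Csnk2a1, a subunit of the kinase that phosphorylates the channels' ankyrin-binding site, fell by 0.65 ± 0.226 (adjusted p = 0.0389).

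At 60 days 9 of these 22 genes rose and 0 fell, where 10.2% of all probe sets rose and 8.92% fell. At an unadjusted p below 0.05, which 33.6% of all probe sets had in either direction, 2 of the 22 were lower. Their median was 0.22, beside 0.02 for all probe sets. For these 22 genes the counts were 5 and 0 and the median 0.10 without ShamC-60 replicate 4, where 6.48% of all probe sets rose and 5.43% fell. The 5 were Sptbn4 (1.56, adjusted p = 6.46e-05), Csnk2b (0.84, adjusted p = 0.00769), Sptbn1 (0.79, adjusted p = 0.0343), Kcna1 (0.76, adjusted p = 0.0133) and Ank2 (0.5, adjusted p = 0.0051). Cntnap1 (0.39), Trim46 (0.35), Epb41l3 (0.64) and Mapre3 (0.67) passed at 60 days with all arrays (adjusted p of 0.0219 to 0.0337) and not without that one (0.0535 to 0.131). Ank3, the ankyrin that binds the channels directly, did not pass at 21 days (-0.06, adjusted p = 0.861) or at 60 days (-0.53, adjusted p = 0.0578). Nfasc, a cell adhesion molecule of the initial segment and node, did not pass either (0.05 at 21 and 0.08 at 60 days). Its signal was low, with group means of 5.7 to 5.78.

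Of 30 further listed partners and regulators of the channels 20 were measured. At 21 days 3 rose and 2 fell and at 60 days 3 rose and 1 fell, with a median of 0.10 at both days. These shares are near those of all probe sets (11.3% and 11.2%, then 10.2% and 8.92%). At 21 days 5 rose and 3 fell without ShamC-60 replicate 4, where 24.6% of all probe sets passed in either direction. Prkaca, a catalytic subunit of the kinase that phosphorylates the alpha subunit, rose by 0.66 ± 0.126 at 21 days (limma adjusted p = 0.000741) and by 1.12 ± 0.133 at 60 days (adjusted p = 2.29e-06). Prkacb, another catalytic subunit of that kinase, did not pass at 21 days (-0.1, adjusted p = 0.735) or at 60 days (0.19, adjusted p = 0.511). Camk2g, a calcium and calmodulin-dependent kinase, rose by 0.64 ± 0.2 (adjusted p = 0.0228) and 0.95 (adjusted p = 0.00266). Its relatives Camk2a, Camk2b and Camk2d did not pass at either day. Unc80, which belongs to the complex of the sodium leak channel, rose by 0.52 ± 0.152 at 21 days (adjusted p = 0.0158). Its signal was low, with means of 4.98 in Spi-21 and 4.46 in ShamC-21. Unc79 of the same complex did not pass at 21 days (-0.26, adjusted p = 0.202) or at 60 days (-0.29, adjusted p = 0.194). Map1b, a microtubule protein, rose by 0.64 ± 0.147 at 60 days (adjusted p = 0.00329), or 0.4 without ShamC-60 replicate 4 (adjusted p = 0.00669). Pgrmc1, a membrane haem-binding protein, fell by 0.95 ± 0.25 (adjusted p = 0.00797) and 1.2 ± 0.264 (adjusted p = 0.00249), and Mapk14, a stress kinase that phosphorylates sodium channels, fell by 0.33 at 21 days (adjusted p = 0.0313). For 0 genes of either list did the difference pass between days (4 of the scaffold genes and 2 of the partners were higher at an unadjusted p below 0.05, where 7.01% of all probe sets were higher or lower).

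**Figure D4:**
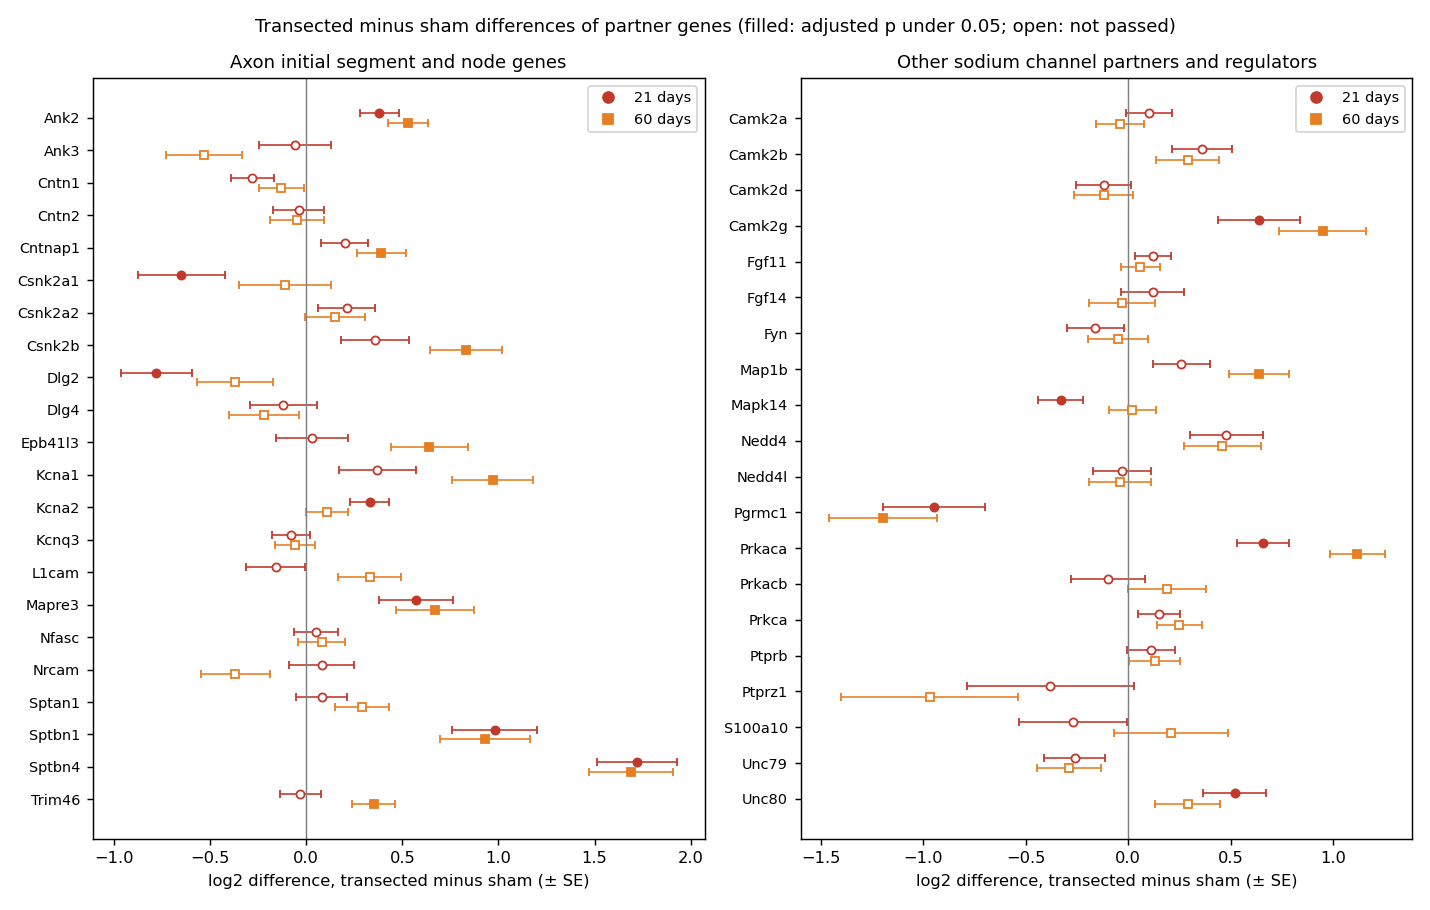
Log2 difference, transected minus sham, with the standard error of the limma fit, of 22 axon initial segment and node genes (left) and 20 other sodium channel partners and regulators (right) at 21 and 60 days, filled where the adjusted p was below 0.05. Sptbn4 lies farthest right in the left panel at both days (1.72 and 1.69), and Prkaca at 60 days (1.12) farthest right and Pgrmc1 at 60 days (-1.2) farthest left in the right panel.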

How the data were processed

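RNA of laser-dissected tail motor neurons was hybridised to 27 Affymetrix rat expression arrays. The authors deposited log2 signals per probe set, made with RMA (background correction, normalization between arrays, summary of probes), per the submitters' processing notes; the RMA version is not given in the sources used here. There were 12919 probe sets, with array medians of 6.31 to 6.41; arrays have no count depth, so their number limits the precision. All 27 columns matched a sample by name, and 0 of 351 pairs of arrays were identical (correlations 0.825 to 0.989).

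Differences were computed here with limma 3.58.1 in R 4.3.3 (lmFit and eBayes, 4 groups sharing 1 spread, no covariate), two-sided, adjusted by Benjamini-Hochberg over 12913 probe sets; 6 beta-actin and GAPDH control probe sets were not tested, and no filter was applied. The fit was tested on simulated data with independent normal noise. That simulation held no outlying array and no 3' to 5' gap, so it does not bear on those features. Probe sets were named from the platform annotation, 11880 with 1 symbol, 320 with several (not named) and 713 with none listed. All members are named, as are the members of the scaffold and partner lists that passed with all arrays. Ank3, Nfasc, Fgf11, Fgf14, Prkacb, Unc79, Camk2a, Camk2b and Camk2d are named too, singled out after their values were seen. Of the marker lists only some members are named, for having passed or for their signal level. In the lists the probe set with the highest mean stands for a gene. The members, the lists and the split of Spi-21 were chosen with earlier results of these data known. Over 35 pairs of same-numbered arrays of different groups, deviations from the group mean had correlations of -0.309 to 0.331, 9 over 0.1. Differently numbered arrays were not compared with these, so this cannot decide whether the numbers pair samples. The main fit used no pairing. Alternatives were re-normalization, centring, a filter on signal, only 2 groups, array weights, a robust trended prior, the replicate block, a glial covariate and leaving out arrays. No genome or protein sequence was used here.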

Additional observations from a re-analysis of the deposited data

Results flagged for a closer look

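In 3 of 44 checks of a probe set within a group, 1 array stood apart from the others of its group by Dixon's test, where chance gives about 1 in 20, and all 3 were ShamC-60 replicate 4. Scn9a was 6.28 there, with 8.53 the nearest other ShamC-60 array. Scn2a was 8.35, with 6.47 the nearest. Scn4b was 9.90, with 11.69 the nearest. The 3 share one array, so they are not independent.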

How the results depend on the processing

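The counts of members that passed moved with the processing as follows. At 21 days (2 higher, 1 lower), 0 were higher with only probe sets above the median mean signal, under which Fgf12 and Scn4a were not tested. With only the 2 groups compared 1 was higher, as with Spi-21 replicates 1 to 4 left out. At that day 2 were lower after quantile normalization, with only 2 groups, with array weights and with the replicate block, and 3 with ShamC-60 replicates 1 and 4 left out. At 60 days (1 higher, 3 lower), 2 were higher with the signal filter and with Spi-21 replicates 1 to 4 left out, 3 with the glial covariate, and 0 with only 2 groups, with array weights and with ShamC-60 replicates 1 and 4 left out; 2 were lower with the signal filter, under which Scn2a was not tested, and with ShamC-60 replicates 1 and 4 left out. Averaged over both days (an average added after seeing the data, with 3 higher and 4 lower), 1 was higher with the signal filter, under which Fgf12, Scn4a and Scn2a were not tested. With ShamC-60 replicates 1 and 4 left out, the averages of Scn10a (0.21, adjusted p = 0.063) and Scn3b 1370850_at (-0.49, adjusted p = 0.0771) did not pass. Leaving out each array in turn gave 1 to 2 higher and 1 to 3 lower at 21 days and 0 to 2 higher and 3 to 4 lower at 60 days. Differences of members that did not pass changed sign in a few settings: Scn11a at 60 days was -0.05 with ShamC-60 replicates 1 and 4 left out and -0.02 to 0.06 over single arrays left out, Scn2b at 21 days was 0.05 with Spi-21 replicates 5 to 8 left out and -0.09 to 0 over single arrays, and Scn3b (1370850_at) at 21 days was 0.09 with Spi-21 replicates 5 to 8 left out. With the replicate block, Scn2a passed at 21 days (-0.71, adjusted p = 0.0165). The cause of these shifts was not tested. Scn9a at both days and Fgf12 at 21 days passed with each of the 27 arrays left out. Over the whole table, 2917 probe sets passed at 21 days and 2463 at 60 days; without ShamC-60 replicate 4 the 60-day count was 1538, without replicate 1 it was 1635 and without both 797, and without Spi-21 replicates 1 to 4 the 21-day count was 1335. Few arrays per group and low signals for Fgf12, Scn2a, Scn4a, Scn8a and Scn2b limit the precision.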

Other observations

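For the counts that follow, 11.3% of all probe sets rose and 11.2% fell at 21 days, and 10.2% and 8.92% at 60 days. Without ShamC-60 replicate 4 these shares were 24.6% in either direction at 21 days, and 6.48% and 5.43% at 60 days. Counts near these shares are not a result about a list. Genes of the axon injury response, 13 measured, were set beside the sodium channels as a check on damage to the axons. At 21 days 0 rose and 3 fell: Arg1, an arginine-metabolising enzyme (-2.96 ± 0.66, adjusted p = 0.00264), Atf3, a stress-response transcription factor (-1.77 ± 0.543, adjusted p = 0.0211), and Vip, a neuropeptide (-1.34 ± 0.484, adjusted p = 0.0455). Atf3 averaged 8.93 in Spi-21 and 10.69 in ShamC-21. At 60 days Csf1, a growth factor for microglia (0.4 ± 0.0834, adjusted p = 0.00136), and Socs3, a cytokine signalling inhibitor (0.29 ± 0.0997, adjusted p = 0.0376), rose and Vip fell (-1.61 ± 0.511, adjusted p = 0.0273), and without ShamC-60 replicate 4, 1 of the 13 rose and 0 fell. Among the markers of other cells at 21 days, 3 of 11 astrocyte, 2 of 11 oligodendrocyte, 3 of 11 microglial, 1 of 6 Schwann cell and 1 of 6 blood genes rose, 1 of 6 muscle genes fell, and none of the 9 interneuron, 6 endothelial and 7 fibroblast genes passed (without ShamC-60 replicate 4, 1 interneuron gene, Gad1, was lower). At 60 days 1 gene each of the astrocyte, oligodendrocyte and microglial lists rose, 2 of the 7 fibroblast and 1 of the 6 blood genes fell, and none of the Schwann cell, endothelial, interneuron and muscle genes passed. The 60-day counts without ShamC-60 replicate 4 were 2 higher for astrocytes, 0 for oligodendrocytes and microglia, 1 lower for Schwann cells and for blood, and 0 for fibroblasts. ShamC-60 replicate 1 had the highest fibroblast mean of the group at 8.28. The part of such cells in the channel differences was not tested.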
